A study of Mus musculus with 4 samples.

Results

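The 9 genes described here set or accompany the division of T cells into the CD4 and CD8 lineages, and were taken by name from 49671 genes: Cd4, Cd8a, Cd8b1, Zbtb7b, Runx1, Runx3, Tox, Cd5 and Cd6. All 9 were present once in both deposited tables. They were measured by total RNA sequencing in splenic CD3+ T cells of 4 female F1 hybrid mice, which form 1 group of 4 biological replicates. The mothers were C57BL/6 mice with a heterozygous Xist deletion and the fathers were Mus musculus castaneus, so every autosomal gene was present as 1 allele of each kind, a maternal C57BL/6 and a paternal Castaneus allele. All 4 cultures were stimulated for 48 hours with anti-CD3 bound to the plate (1 µg/ml) and anti-CD28 in solution (10 µg/ml). All also held IMD-0354 at 2.5 µM, which inhibits IKKβ, a kinase upstream of NF-κB. Unstimulated cells and cells without the inhibitor were not analysed here, so no effect of either was measured. The comparisons that remain are between genes, between alleles and between animals.

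CD4 and CD8 are coreceptors that bind MHC class II and class I molecules beside the T cell receptor and bring the kinase LCK to it. Developing T cells pass through a stage with both coreceptors and then keep one. The zinc finger factor ThPOK, encoded by Zbtb7b, is needed for the CD4 fate, and RUNX3 silences Cd4 and Zbtb7b in the CD8 fate. RUNX1 acts earlier and shares the binding partner CBFβ, and TOX is a high mobility group protein needed for the CD4 lineage in the thymus. CD5 and CD6 are related scavenger receptor cysteine-rich proteins that temper T cell receptor signals on both lineages.

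The genes lie at chr6:124864692-124888221 (Cd4, ENSMUSG00000023274), chr6:71373427-71379173 (Cd8a, ENSMUSG00000053977), chr6:71322788-71337494 (Cd8b1, ENSMUSG00000053044), chr3:89377644-89394776 (Zbtb7b, ENSMUSG00000028042) and chr16:92601466-92826149 (Runx1, ENSMUSG00000022952) in mm10. Runx3 (ENSMUSG00000070691) lies at chr4:135120652-135177990, Tox (ENSMUSG00000041272) at chr4:6686353-6991557, Cd5 (ENSMUSG00000024669) at chr19:10717116-10739002 and Cd6 (ENSMUSG00000024670) at chr19:10789341-10830058. All 9 are protein coding in GENCODE M21. Cd8a and Cd8b1, which encode the α and β chains of CD8, are neighbours 35932 bases apart, and Cd5 and Cd6 are neighbours 50338 bases apart. Antisense genes share 216 exonic bases with Zbtb7b (Gm15417, 2.16 RPKM), 106 with Runx1 (Gm26626, 0.506 RPKM) and 260 with Tox (Gm11802, listed at 0). RPKM values are reads scaled to gene length and library size. No source used here says whether strand entered the counting, so reads in these stretches cannot be assigned to one strand.

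Stretches upstream of 3 of the genes are printed because the results below turn on the allelic difference of Cd5 and on the balance of Zbtb7b and Runx3. They come from RefSeq promoters of GRCm38.p6, the assembly behind mm10, which held 5 of the 9 genes (Zbtb7b, Runx3, Cd8a, Runx1 and Cd5). Each is the C57BL/6 reference, 5′ to 3′ on the strand of the gene, ending at the RefSeq start or, for Cd5, before the first base that GENCODE places in an exon. Capitals mark the RUNX core letters TGTGGT, or ACCACA on the other strand.
Cd5, chr19:10739003-10739224, minus strand: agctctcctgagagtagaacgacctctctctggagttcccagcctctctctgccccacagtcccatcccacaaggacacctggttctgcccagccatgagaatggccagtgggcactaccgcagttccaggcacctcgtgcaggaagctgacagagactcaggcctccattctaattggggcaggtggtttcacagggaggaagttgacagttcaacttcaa
Runx3, chr4:135120395-135120644, plus strand: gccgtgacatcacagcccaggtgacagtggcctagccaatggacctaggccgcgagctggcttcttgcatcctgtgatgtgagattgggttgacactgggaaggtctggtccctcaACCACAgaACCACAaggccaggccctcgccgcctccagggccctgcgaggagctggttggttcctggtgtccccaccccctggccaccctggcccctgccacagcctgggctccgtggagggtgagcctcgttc
Zbtb7b, chr3:89387672-89387921, minus strand: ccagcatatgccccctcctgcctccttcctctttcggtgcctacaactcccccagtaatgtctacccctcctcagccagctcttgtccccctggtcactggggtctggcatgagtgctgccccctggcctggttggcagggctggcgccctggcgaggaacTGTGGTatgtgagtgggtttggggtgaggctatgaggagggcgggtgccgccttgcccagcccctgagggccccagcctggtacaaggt
The Runx3 stretch, upstream of the farther 5′ of its 2 RefSeq starts, held 2 matches and the Zbtb7b stretch, upstream of a start inside the gene, held 1, and no match was found in that of Cd5. The window at the other RefSeq start of Runx3 and that of Zbtb7b held 0 matches, as did the windows of Cd8a and Runx1, and the printed stretches of Runx3 and Zbtb7b were chosen for their matches. In all, 4614 of 32851 RefSeq promoter windows of 250 bases (14.05%) held at least 1 match on either strand. A match of 6 letters is a description of the window and shows no binding.

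Totals of allelic reads were similar across the 4 libraries. The reads per molecule and most marker sums of other cell types were less so. Reads assigned to an allele numbered 30539711 to 34992012 per library. An estimated 7.19 to 22.6 reads stood for 1 molecule, with the most in replicate 2, so intervals on reads are too narrow. The 9 T cell markers summed to 632 to 732 RPKM, with Cd3e at 42.4 ± 2.30 RPKM (SD, n = 4). Of markers of other cells, the sums were 5.67 to 11.7 RPKM for 7 B cell genes, 37.2 to 99.4 for 7 myeloid genes, 15.7 to 17.4 for 7 dendritic cell genes, 1.79 to 6.82 for 5 NK cell genes and 1.76 to 4.24 for 5 γδ T cell genes. They were 0.886 to 1.15 RPKM for 2 NKT cell genes, 3.25 to 7.46 for 7 erythroid and platelet genes and 0.0299 to 0.202 for 4 genes of double-positive thymocytes, of which Ptcra was listed at 0. Of the dendritic cell sum, Zbtb46 made 10.4 ± 0.95 RPKM, Flt3 3.21, Batf3 2.19 and Itgax 0.742. Xcr1, Clec9a and Siglech were at 0.0245, 0.00837 and 0.00855 RPKM. Of the myeloid sum, Lyz2 made 18.8 to 74.4 RPKM and Cd68 9.91 to 16.8. Of the NK cell sum, Fcgr3 made 1.47 to 5.75 RPKM, with replicate 2 highest. Klre1, Ncr1, Klra8 and Klrb1c averaged 0.358, 0.0895, 0.0849 and 0.0633 RPKM. The B cell sum was highest in replicate 1 and the myeloid sum in replicate 2.

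Cd4 and both CD8 chains were read at moderate to high levels in every library. Cd4 had 38.7, 29.8, 25.8 and 30.3 RPKM in replicates 1 to 4 (mean 31.1 ± 5.45, SD, n = 4). Replicate 1 was highest, and the other replicates lay between 25.8 and 30.3 RPKM. Cd8a had 14.8, 15.5, 15.3 and 15.8 RPKM (15.4 ± 0.418) and Cd8b1 48.6, 53.0, 47.9 and 49.5 RPKM (49.7 ± 2.25). The CD8 chains thus varied by 2.72% and 4.52% of their means (coefficient of variation, CV) and Cd4 by 17.5%. Among the 2355 genes with a mean within 2-fold of Cd4, the median CV was 8.59% and 91.0% had a lower one. For Cd8a only 3.27% of 4062 such genes had a lower CV. In bulk RNA, more cells of one lineage and more RNA per cell cannot be told apart.

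Among the transcription factors, Zbtb7b was the highest and Tox the lowest. Zbtb7b had 35.4, 40.7, 36.9 and 40.6 RPKM in replicates 1 to 4 (38.4 ± 2.68), above 92.9% of the 11453 genes that averaged 1 RPKM or more. Runx3 had 22.9, 22.1, 18.1 and 20.8 RPKM (20.96 ± 2.07). Runx1 had 5.30, 6.27, 6.65 and 6.75 RPKM (6.25 ± 0.661). Replicate 1 was therefore the highest of the 4 for Runx3 and the lowest for Runx1. Tox had 2.46, 2.51, 2.02 and 2.55 RPKM (2.39 ± 0.245), below the median of 6.72 RPKM for genes with at least 1 RPKM, and replicate 3 was lowest.

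Cd6 was the highest of the 9 genes. It had 53.4, 57.2, 58.9 and 56.7 RPKM (56.5 ± 2.30), which placed it at rank 477 of all 49671 genes. Cd5, which encodes the related receptor CD5, had 35.6, 36.7, 37.3 and 42.4 RPKM (38.03 ± 3.02), with replicate 4 highest. Their CVs of 4.07% and 7.93% were below the medians of 8.57% and 8.54% of genes within 2-fold of each.

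**Figure D1:**
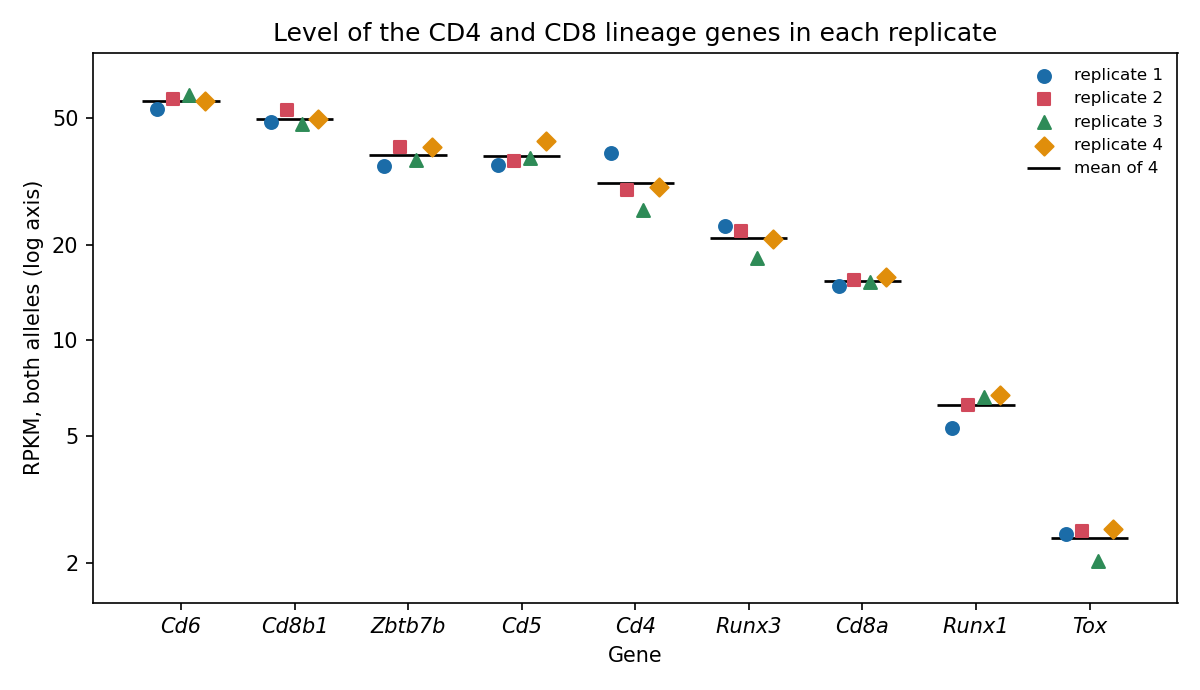
RPKM of both alleles together (log axis) for each gene, with 1 symbol per replicate and a line at the mean of 4. Cd4 spreads from 25.8 to 38.7 RPKM with replicate 1 highest, while the CD8 chains Cd8a and Cd8b1 stay within 14.8 to 15.8 and 47.9 to 53.0 RPKM.

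By mean level the order was Cd6, Cd8b1, Zbtb7b, Cd5, Cd4, Runx3, Cd8a, Runx1 and Tox. This order, like every comparison of RPKM between genes here, rests on gene lengths that no source used here states. GENCODE's exons cover 1483 bases of Cd8b1 and 12025 of Runx1. Zbtb7b and Cd5 did not differ beyond their spread, with Zbtb7b higher in 1 of 4 replicates (exact two-sided sign-flip permutation test, p = 1). Cd5 was above Cd4 in 3 of 4 replicates, the exception being replicate 1 (p = 0.25 by the same exact test). The other 6 pairs of neighbours kept their order in 4 of 4 replicates and their ranges did not overlap. For these the exact test gave p = 0.13, the smallest value that 4 replicates allow, so none could reach 0.05. The smallest of these steps was Cd6 over Cd8b1 at 1.14-fold and the largest Runx1 over Tox at 2.62-fold.

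Ratios of levels were also taken within each library. Cd8a over Cd8b1 was 0.305, 0.293, 0.319 and 0.320 in replicates 1 to 4, with a CV of 4.04%, the smallest of the 8 ratios computed. The α chain was below the β chain in 4 of 4 libraries, by a similar factor in each. Each chain varied little by itself (CV 2.72% and 4.52%), so a tight ratio does not show that they moved together. GENCODE's exons cover 3637 bases of Cd8a and 1483 of Cd8b1, and no source used here says which length the authors divided by, so the size of this ratio depends on an unstated choice. Its spread over replicates does not depend on it. Cd4 over Cd8a was 2.61, 1.92, 1.69 and 1.91, with replicate 1 highest (CV 19.6%), and Cd4 over Cd8b1 was 0.797, 0.562, 0.538 and 0.611. Cd4 was above Cd8a and below Cd8b1 in 4 of 4 replicates. Which gene of a pair is higher, here and in the ratios below, depends on the same unstated lengths.

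The ratio of the lineage factors was not highest in the library where that of the coreceptors was. Zbtb7b over Runx3 was 1.55, 1.84, 2.03 and 1.95, lowest in replicate 1, where Cd4 over Cd8a was highest. Cd4 over Zbtb7b was 1.10 in replicate 1 and 0.732, 0.699 and 0.746 in replicates 2 to 4, so Cd4 exceeded the gene of its lineage factor in replicate 1 and in none of the others. Cd8a over Runx3 was 0.649, 0.704, 0.841 and 0.762. Runx1 over Runx3, the paralogs, was 0.232, 0.284, 0.367 and 0.325 (CV 19.1%), and Cd5 over Cd6 was 0.668, 0.643, 0.634 and 0.748 (CV 7.75%). With 4 replicates of 1 condition no correlation between genes was computed. Over the series, 303 of 11453 genes, or 2.65%, were as far above the next replicate in replicate 1 as Cd4, which was 1.28-fold above it. The summed B cell markers were also highest in replicate 1, at 11.7 RPKM, and the summed T cell markers lowest, at 632 RPKM, and their part in the level of Cd4 was not tested.

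**Figure D2:**
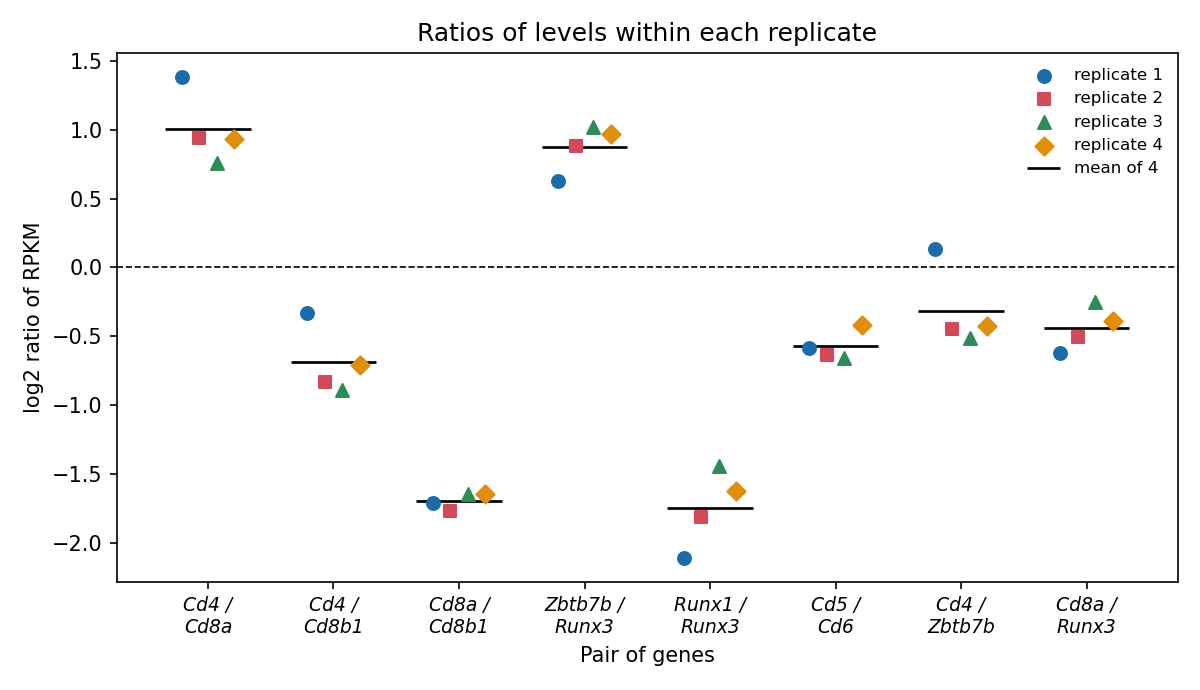
Log2 ratio of RPKM within each replicate for 8 pairs of genes, with a line at the mean of 4 and a dashed line at equal levels. Cd8a over Cd8b1 is tight around a log2 ratio of -1.69, and the ratios with Cd4 as numerator are highest in replicate 1.

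Reads of the C57BL/6 and Castaneus alleles were compared for each autosomal gene with a mean of at least 20 allelic reads and 1 RPKM, which all 9 genes passed. Cd5, Cd6 and Runx1 were read more from the C57BL/6 allele, none of the 9 more from Castaneus, and the other 6 did not pass. Over all 10268 genes tested 28.1% were called, 15.6% with C57BL/6 higher and 12.4% with Castaneus higher (edgeR's quasi-likelihood test, Benjamini-Hochberg, FDR of 5%). A count of 3 in 9 is near that background. Which direction had more calls over all genes depended on the scaling. With TMM factors 1481 were called with Castaneus higher and 1352 with C57BL/6 higher. The median log2 ratio of Castaneus over C57BL/6 was -0.12 for the 9 genes and -0.04 for all genes tested. In every mouse the C57BL/6 allele was the maternal one and the one that mm10 represents. Strain, parent of origin and mapping to that reference therefore cannot be told apart for any allelic call.

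Cd5 had the largest allelic difference of the called genes among the 9. Its Castaneus share of allelic reads was 36.7%, 33.5%, 36.0% and 37.6% in replicates 1 to 4 (36.0% ± 1.75, SD, n = 4), from 6087 to 7788 reads per replicate. All 4 replicates lay on the C57BL/6 side, in a narrow range. The log2 ratio of Castaneus over C57BL/6 was -0.81 with a standard error of 0.06 (edgeR, adjusted p = 3.74e-06). Of all genes tested, 16.5% had a larger ratio in either direction and 7.66% had a lower Castaneus share. Split by these shares, the mean level of Cd5 was 24.3 ± 1.64 RPKM from C57BL/6 and 13.7 ± 1.57 RPKM from Castaneus.

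Cd6, the neighbour of Cd5, leaned the same way by less. Its Castaneus share was 44.6%, 44.1%, 43.6% and 46.1% (44.6% ± 1.07), from 11382 to 14046 reads per replicate, and all 4 replicates were below 50%. The log2 ratio was -0.29 with a standard error of 0.05 (edgeR, adjusted p = 0.00101). The share of Cd6 exceeded that of Cd5 by 7.84, 10.6, 7.57 and 8.52 percentage points (8.63 ± 1.37, higher in 4 of 4 replicates, exact two-sided sign-flip permutation test, p = 0.13, the smallest possible). Cd6 thus lay nearer to 50% than Cd5 in each replicate, while the reads of chromosome 19 as a whole had a share of 49.4% ± 0.217.

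Runx1 was called with less support. Its Castaneus share was 45.2%, 40.05%, 45.98% and 47.2% (44.6% ± 3.15), below 50% in 4 of 4 replicates and lowest in replicate 2. The log2 ratio was -0.29 with a standard error of 0.08 (edgeR, adjusted p = 0.0239). The call was lost without replicate 1, 2 or 3 (adjusted p = 0.0752, 0.055 and 0.055) with TMM factors (adjusted p = 0.055) and when the replicate was not in the model (adjusted p = 0.0824), and over 11 alternatives the adjusted p ran from 0.0107 to 0.0824. Its paralog Runx3 had 49.6%, 55.1%, 49.7% and 53.8% (52.1% ± 2.80) and did not pass (log2 ratio 0.14, edgeR, adjusted p = 0.242). Runx3 exceeded Runx1 in Castaneus share in 4 of 4 replicates, by 7.45 ± 5.20 percentage points (exact sign-flip permutation test, p = 0.13).

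The coreceptor genes were read nearly evenly from both alleles. The Castaneus share of Cd4 was 49.0%, 52.6%, 50.04% and 47.4% (49.8% ± 2.20), that of Cd8a 52.5%, 50.7%, 49.3% and 54.7% (51.8% ± 2.36) and that of Cd8b1 45.96%, 51.9%, 49.0% and 48.6% (48.9% ± 2.43). Each of the 3 had replicates on both sides of 50%. None passed edgeR's test, with log2 ratios of 0.01 for Cd4, 0.13 for Cd8a and -0.04 for Cd8b1, standard errors of 0.06, 0.10 and 0.07 and adjusted p = 0.931, 0.368 and 0.716. The higher level of Cd4 in replicate 1 came from both alleles, at 19.7 RPKM from C57BL/6 and 18.99 RPKM from Castaneus, against 12.9 to 15.9 and 12.9 to 15.7 RPKM in the other replicates. Lag3, which encodes a CD4-related receptor and lies 16139 bases from Cd4, had 31.5% ± 5.44 from Castaneus (log2 ratio -1.11, edgeR, adjusted p = 7.65e-05).

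**Figure D3:**
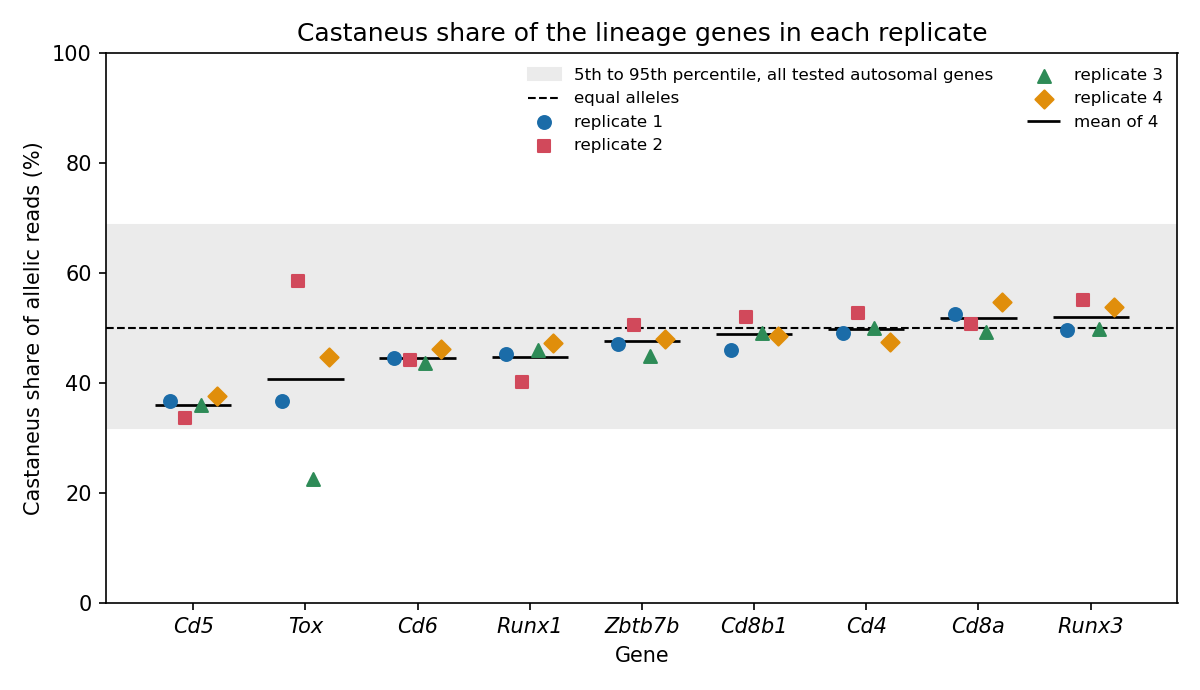
Castaneus share of allelic reads for each gene and replicate, with a line at the mean of 4, a dashed line at 50% and a grey band from 31.8% to 68.7%, the 5th to 95th percentile of 10268 autosomal genes. Cd5 sits between 33.5% and 37.6% in every replicate, and Tox spreads from 22.5% to 58.6%.

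Zbtb7b and Tox did not pass with all 4 replicates. Zbtb7b had a Castaneus share of 47.0%, 50.4%, 44.9% and 48.0% (47.6% ± 2.30, log2 ratio -0.12, edgeR, adjusted p = 0.189). Tox had 36.6%, 58.6%, 22.5% and 44.7% (40.6% ± 15.1, log2 ratio -0.57 with a standard error of 0.36, adjusted p = 0.282). Replicate 2 was on the Castaneus side for both genes and the other replicates were on the C57BL/6 side. Without replicate 2, both were called with C57BL/6 higher (edgeR, log2 ratio -0.17 and adjusted p = 0.0387 for Zbtb7b, log2 ratio -0.93 and adjusted p = 0.0355 for Tox), while without replicate 3 the log2 ratios shrank to -0.06 and -0.17 (edgeR, adjusted p = 0.559 and 0.778, the largest over 11 alternatives). Replicate 2 was also the library with the most reads per molecule.

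**Figure D4:**
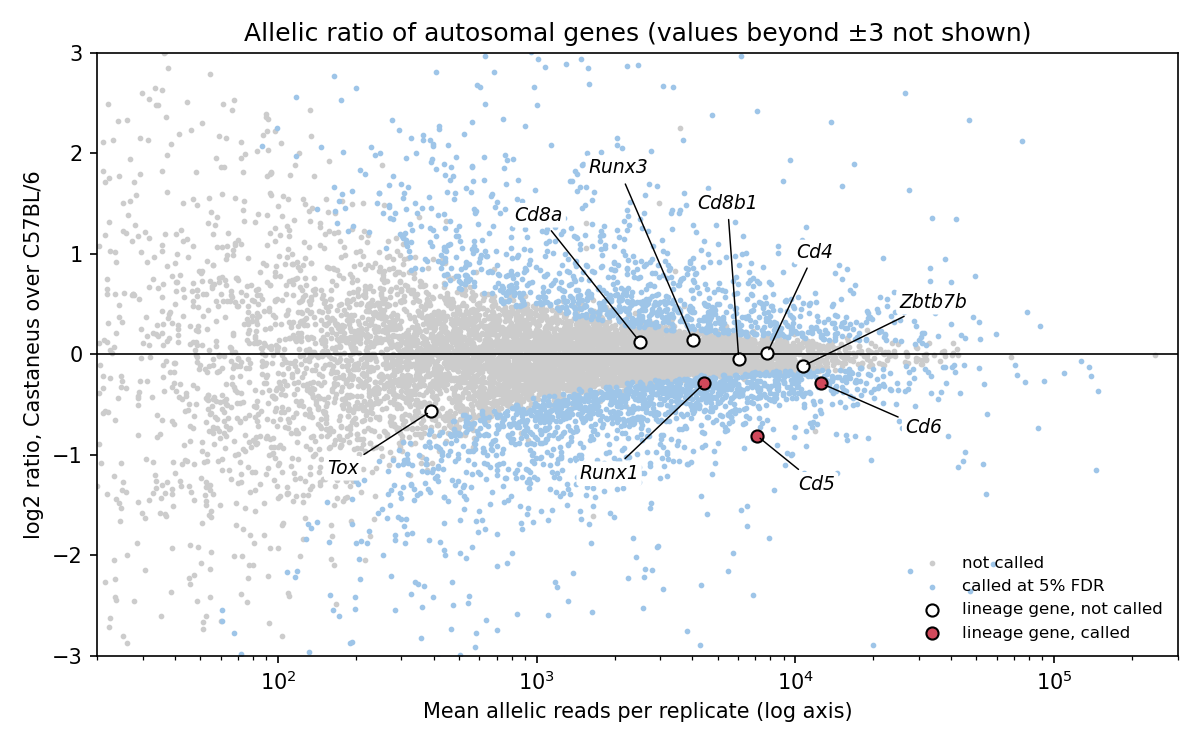
Log2 ratio of Castaneus over C57BL/6 against the mean allelic reads per replicate (log axis) for the autosomal genes tested, with called genes in blue and the lineage genes as large circles. Cd5 at -0.81, Cd6 at -0.29 and Runx1 at -0.29 are called (red), and the other 6 lie among genes of like depth that are not called, while 312 genes beyond a log2 ratio of 3 in either direction lie outside the axis.

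Tox also varied most between animals. In its 344 to 454 reads per replicate, the exact Clopper-Pearson 95% intervals ran from 18.7% to 26.6% in replicate 3 and from 53.6% to 63.5% in replicate 2, and these cover counting error only. Its standard deviation of 15.1 percentage points exceeded that of 92.1% of the 2419 genes with reads within 2-fold of it, whose median was 7.71. The Castaneus part of its RPKM was 0.902, 1.47, 0.454 and 1.14 in replicates 1 to 4, a 3.24-fold range, and the C57BL/6 part 1.56, 1.04, 1.57 and 1.41, a 1.51-fold range. On reads divided by the reads per molecule, a chi-square test for a share that differs between replicates called none of the 9 genes and 0.67% of 10144 genes (Benjamini-Hochberg, FDR of 5%). Tox had the lowest adjusted value of them by this chi-square test, 0.784, and none was under 0.05 unadjusted. On undivided reads the same test called 9 of 9, but also 89.3% of all genes.

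**Figure D5:**
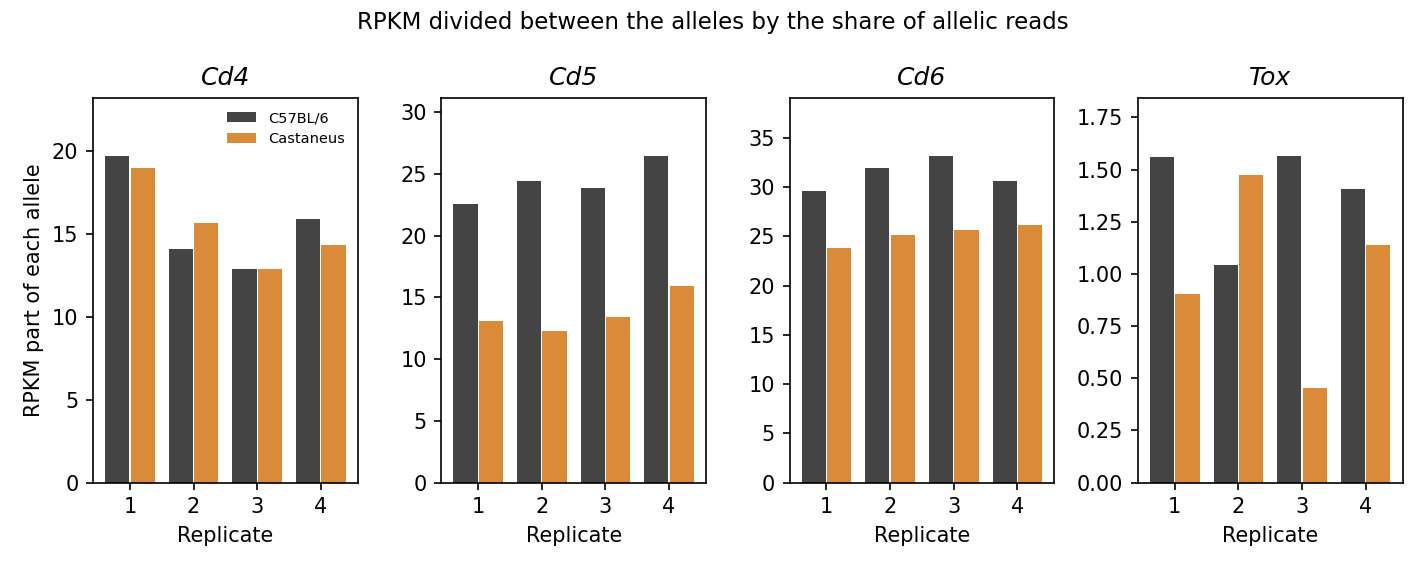
RPKM of Cd4, Cd5, Cd6 and Tox divided between the C57BL/6 and Castaneus alleles by the share of allelic reads, for replicates 1 to 4, with a separate axis from 0 for each gene. The C57BL/6 bar is the taller in all 4 replicates for Cd5 and Cd6, both bars of Cd4 are tallest in replicate 1, and the Castaneus bar of Tox ranges from 0.454 to 1.47 RPKM.

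Genes that work with RUNX and TOX proteins were read at low to moderate levels. Of 11 such genes 7 averaged 1 RPKM or more, and the highest were Cbfb, the shared RUNX partner, at 23.5 ± 1.09 RPKM, Tle4, a corepressor gene, at 13.1 ± 1.18 and Tox4 at 12.7 ± 0.888 (SD, n = 4). Cbfb thus lay near Runx3 and above Runx1 in level, while the remaining Runx paralog, Runx2, had 5.75 ± 0.372 RPKM, and Tox2 and Tox3 had 0.366 and 0.159. Of the 7 tested for allelic ratio 4 were called with C57BL/6 higher, beside 15.6% of all genes tested, and 0 with Castaneus higher, beside 12.4%, with a list median log2 ratio of -0.32 beside -0.04 for all genes. These were Tle1 with 19.7% ± 7.60 of its reads from Castaneus, Runx2 with 36.5% ± 3.23, Tle3 with 38.8% ± 2.12 and Cbfb with 44.1% ± 3.63 (edgeR, adjusted p = 0.000235, 0.00239, 3.10e-05 and 0.0436). The call of Cbfb was lost in 8 of 11 alternatives, among them each replicate left out (adjusted p = 0.0798, 0.0934, 0.098 and 0.105 without replicates 1 to 4), TMM factors and no block, with adjusted p from 0.0252 to 0.105 over the 11, and the list then held 3 calls. Of the Runx genes, Runx1 and Runx2 were called in this fit and Runx3 was not.

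The 24 genes of the list of lineage choice factors all had at least 1 RPKM. Tcf7, which encodes TCF-1, was highest at 245 ± 34.6 RPKM, followed by Satb1, a chromatin organiser gene, at 77.6 ± 2.78 and Chd4, a remodeller gene, at 57.1 ± 2.75. Gata3, which acts before ThPOK in the CD4 fate, had 32.9 ± 2.49 RPKM, close to Cd4. In the allelic test 4 of 24 were called with Castaneus higher and 3 with C57BL/6 higher, near the 28.1% called over all genes tested. Zbtb17 had 61.8% ± 5.55 of its reads from Castaneus and Gata3 60.3% ± 2.89 (adjusted p = 0.00222 and 0.000189). Themis, a gene of T cell receptor signalling in thymocytes, had 38.8% ± 8.86 (edgeR, adjusted p = 0.0162), a call lost without replicate 1 (log2 ratio -0.48, adjusted p = 0.121).

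Genes typical of one lineage were read from both programmes. Of 15 genes of the CD8 T cell programme 11 had at least 1 RPKM, led by Gzmb, which encodes granzyme B, at 34.3 ± 7.30 RPKM, Nkg7, a gene of cytotoxic granules, at 24.8 ± 8.38 and Xcl1, a chemokine gene, at 14.8 ± 2.59. The sum of this list was 144 RPKM in replicate 1 and 110 to 115 in the others. Nkg7, Gzmb and Tbx21 were highest in replicate 1 (37.2, 44.9 and 13.3 RPKM), as Cd4 was. Ctsw, Prf1, Crtam and Gzmk were also highest there (7.50, 2.64, 0.588 and 0.0881 RPKM). Of the 11453 genes with at least 1 RPKM, 19.7% were highest in replicate 1. The list did not rise as a whole, since Itgae, Klrd1, Klrc1 and Klrk1 were lowest there (3.50, 1.90, 3.00 and 0.265 RPKM). Xcl1, Ccl5, Eomes and Gzma were highest in other replicates. Of 12 genes of the CD4 T cell programme 10 had at least 1 RPKM, led by the costimulatory receptor genes Tnfrsf4 at 89.7 ± 5.47 and Tnfrsf18 at 83.6 ± 5.52 and by Ikzf2, which encodes Helios, at 13.6 ± 0.301. That sum was 212 to 229 RPKM, with replicate 4 highest. Activated CD8 T cells can also express several of these genes, so the sums do not count cells.

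In the allelic test 4 of 11 genes of the CD8 programme were called with Castaneus higher, beside 12.4% of all genes tested, and 2 with C57BL/6 higher, beside 15.6%. Klrc1 had 25.4% ± 6.70 of its reads from Castaneus, Nkg7 30.8% ± 3.29 and Xcl1 71.9% ± 7.74 (edgeR, adjusted p = 0.00054, 0.000282 and 0.0054). Of the CD4 programme 8 autosomal genes were tested, and 3 were called in each direction, beside 28.1% of all genes tested called in either. Izumo1r, which encodes folate receptor 4, had 17.5% ± 9.24 from Castaneus, and Icos and Ctla4, costimulatory and inhibitory receptor genes of chromosome 1, had 80.6% ± 2.13 and 71.95% ± 6.77 (edgeR, adjusted p = 0.00121, 2.27e-07 and 0.00115). Both lists held genes with larger allelic ratios than any of the 3 coreceptor genes, but so would most lists. Of all genes tested, 98.2%, 72.2% and 90.8% had larger ratios than Cd4, Cd8a and Cd8b1.

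Partners of the coreceptors and of CD5 and CD6 included Lck at 65.5 ± 2.99 RPKM, the kinase gene Zap70 at 57.5 ± 5.57 and Cblb, a ubiquitin ligase gene, at 54.9 ± 3.47. Of the 21 genes of this list 16 had at least 1 RPKM. Of the 15 tested 7 were called with C57BL/6 higher, beside 15.6% of all genes tested, and 1 with Castaneus higher, beside 12.4%. The median log2 ratio of the list was -0.23, and that of all genes tested -0.04. Cd72, which encodes a reported CD5 ligand, had 25.2% ± 4.80 of its reads from Castaneus and Sla2, an adaptor gene, 30.0% ± 8.04 (edgeR, adjusted p = 5.07e-05 and 0.000683). Lck had 50.2% ± 0.661 and was not called (adjusted p = 0.697). Alcam, which encodes the CD6 ligand, had 4.84 ± 0.891 RPKM, and the scavenger receptor relatives Cd5l, Cd163, Cd163l1, Ssc4d and Ssc5d had 0.0456, 0.0902, 0.181, 0.241 and 0.191 RPKM, beside 38.03 for Cd5 and 56.5 for Cd6.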

How the data were processed

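Total RNA of 4 libraries was sequenced from a stranded kit with ribosomal RNA removal, per the labels' protocols. The authors deposited RPKM values of both alleles together and unnormalized read counts per gene and allele, per the file headers. STAR 2.7.1a, featureCounts (no version) and mm10 are named in the submitters' processing notes, and no source used here says how reads were assigned to an allele. The replicates are labelled biological. The p-values of the edgeR, DESeq2 and sign-flip tests measure the spread between them. Those of the chi-square test set the shares of the replicates against counting error only.

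RPKM values were used as deposited. Their ratios within a library were tested by exact sign-flip permutation, and single values by Dixon's test. The allelic test was edgeR 4.0.16's glmQLFTest after glmQLFit (R 4.3.3). Its model blocked on replicate and took the autosomal total of an allele as library size, over autosomal genes with a mean of at least 20 reads and 1 RPKM. DESeq2 1.42.0, TMM factors, other filters, no block, reads per molecule and leaving out each replicate were alternatives. Standard errors are the log2 ratio divided by the root of the quasi-likelihood F. Reads per molecule came from the share of autosomal genes with 20 to 39 reads that were read from 1 allele only, assuming equal alleles. For expected counts below 5, chi-square tests drew 100000 random tables. The tests were tested on simulated data. There the allelic test recovered 21% of 1.5-fold and 72% of 2-fold differences and called 0.0099% of unchanged genes. A gene that was not called may therefore still differ between alleles. Other work used pandas 2.3.3, scipy 1.17.1, matplotlib 3.10.9 and numpy 2.4.6 under Python 3.11.15. Positions are from GENCODE M21, of the build of the files, and 49326 of 49671 gene IDs were found in that annotation.

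The 9 genes, the lists and the tests were chosen with earlier results of these data known. The text names the 9 genes and, per list, the 3 highest by RPKM and the 3 called genes with the largest allelic ratio. Others named (Tox2, Tox3, the other genes of the CD8 T cell programme, Alcam and the scavenger receptor relatives, and single markers) were chosen after their values were seen. For 1 listed symbol with 2 gene IDs, Itgam, the ID with the higher mean was used. No per-sample column was left out.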

Additional observations from a re-analysis of the deposited data

Results flagged for a closer look

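Of 56 sets of 4 replicate values tested for a value that stands apart from the other 3 (Dixon's test, 95% limit), 4 did, and chance alone gives about 1 in 20. Tox had 2.02 RPKM in replicate 3, below the other 3 replicates. Cd4 over Zbtb7b was 1.10 in replicate 1, above the other 3. Nkg7 had 37.2 RPKM in replicate 1, above the other 3, and Cbfb had 21.9 RPKM in replicate 1, below the other 3.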

How the results depend on the processing

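The calls of Cd5 and Cd6 held under all 11 alternatives, with log2 ratios of -0.84 to -0.76 and -0.32 to -0.24 (largest adjusted p of 0.000294 and 0.0162). Runx1 lost its call in 5 of 11, Cbfb in 8 of 11, and Zbtb7b and Tox gained one without replicate 2, as reported above. The direction of Cd4 turned on the molecule scale (-0.020) and when single replicates were left out (-0.047 to 0.057, below 0 without replicate 2), and that of Cd8b1 with TMM factors (0.0064), DESeq2 (0.00070) and when single replicates were left out (-0.102 to 0.014, above 0 without replicate 1), none of them called. Of the 9 genes 3 were called, and 2 to 4 when 1 replicate was left out. Without the replicate block 2100 autosomal genes were called in place of 2883, and 2 of the 9 genes. DESeq2 called 1930 genes with Castaneus higher in place of 1278, and 1883 with C57BL/6 higher in place of 1605. With TMM factors these counts were 1481 and 1352. The excess of calls with C57BL/6 higher over all genes was thus not kept under these 2 alternatives. Leaving out 1 replicate gave 1034 to 1728 genes with C57BL/6 higher, in place of 1605, with the lowest count without replicate 4. Of the list of lineage choice factors DESeq2 called 11 in place of 7. The cause of these differences was not tested. Between animals 9 of the 9 genes were called on undivided reads in place of 0. A pseudocount of 1 RPKM moved the log2 ratio of Cd8a over Cd8b1 from -1.69 to -1.63. All 45 alternatives of the levels of the 9 genes and 47 of 48 of their ratios moved by less than 1 SD. Most of these could not have moved further. Leaving out 1 replicate cannot move a mean of 4 by 1 SD, and a minimum of 1 RPKM removed none of the 9 genes. These counts therefore say little about how stable the levels and ratios are. Depth limits Tox most, whose 390 reads per replicate on average stand for few molecules.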
